A study of Mus musculus with 24 samples.

Results

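Extracellular matrix genes, 10 in number, were followed here in cultured mouse oligodendrocytes with and without ethanol. They were taken by name as 8 collagen chain genes (Col1a1, Col1a2, Col3a1, Col4a1, Col4a2, Col5a1, Col5a2 and Col6a1) with Fn1 and Sparc, and all 10 were found among the 55359 rows of the count table. The choice was made with earlier results of these data known. All 10 had enough counts to be tested in every comparison. The cells came from the cortex of C57BL6/J pups on postnatal days 5 to 7, were sorted with magnetic beads for O4, a surface marker of immature oligodendrocytes, and were differentiated for 3 days, mainly by triiodothyronine (T3), before 3 days of exposure. There were 4 groups of 6 cultures: 30 mM ethanol and 0 mM controls in batch 1, and 10 mM ethanol and 0 mM controls in batch 2. Plates without ethanol stood in a separate incubator. Effects of the ethanol therefore cannot be told apart from those of the incubator, and because each dose was used in 1 batch only, dose and batch cannot be told apart. The labels call the cultures biological replicates without naming the litters or pups behind them, and p-values measure the spread between these cultures.

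Collagens are proteins of 3 chains wound into a triple helix. Fibrillar collagens (types I, III and V) assemble outside the cell into the fibrils that give tissue its tensile strength, whereas type IV collagen forms the flat network of basement membranes. In the brain such matrix is found mainly in the meninges and around blood vessels, where fibroblasts, pericytes, smooth muscle cells and endothelial cells make most of it, while type IV and type V chains, fibronectin and SPARC are also made by cultured glia. Fibronectin is a large adhesive glycoprotein that cells bind through integrins, and SPARC is a secreted protein that binds collagen and modulates its deposition.

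Levels are given as CPM, a gene's counts scaled to a common library size, with TMM factors over all 24 cultures. Reads came from the 3′ ends of transcripts, so levels of different genes can be set side by side without division by transcript length. The total per culture ranged from 1184609 to 1817028 counts. Col6a1 was the most thinly counted of the 10 genes, with 9 to 39 counts per culture, and Sparc the most deeply counted, with 1553 to 4382. The label of the cells was checked with fixed markers: Mbp, a major myelin protein gene, had a mean of 2430 to 3450 CPM over the groups, and the 14 oligodendrocyte markers together averaged 8119 to 11187 CPM. Astrocyte markers were also abundant, with group means of 5398 to 6709 CPM for 14 genes. The 14 microglial markers summed to 325 and 329 CPM in the groups of batch 1 and to 3460 and 3296 CPM in those of batch 2. One culture, 30 mM replicate 1, stood apart, with oligodendrocyte markers summing to 16823 CPM against 9855 to 10338 CPM in the other 5 cultures of its group and 7660 to 9446 CPM in their controls. In such bulk samples fewer cells of a type and less RNA per cell cannot be told apart.

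**Figure D1:**
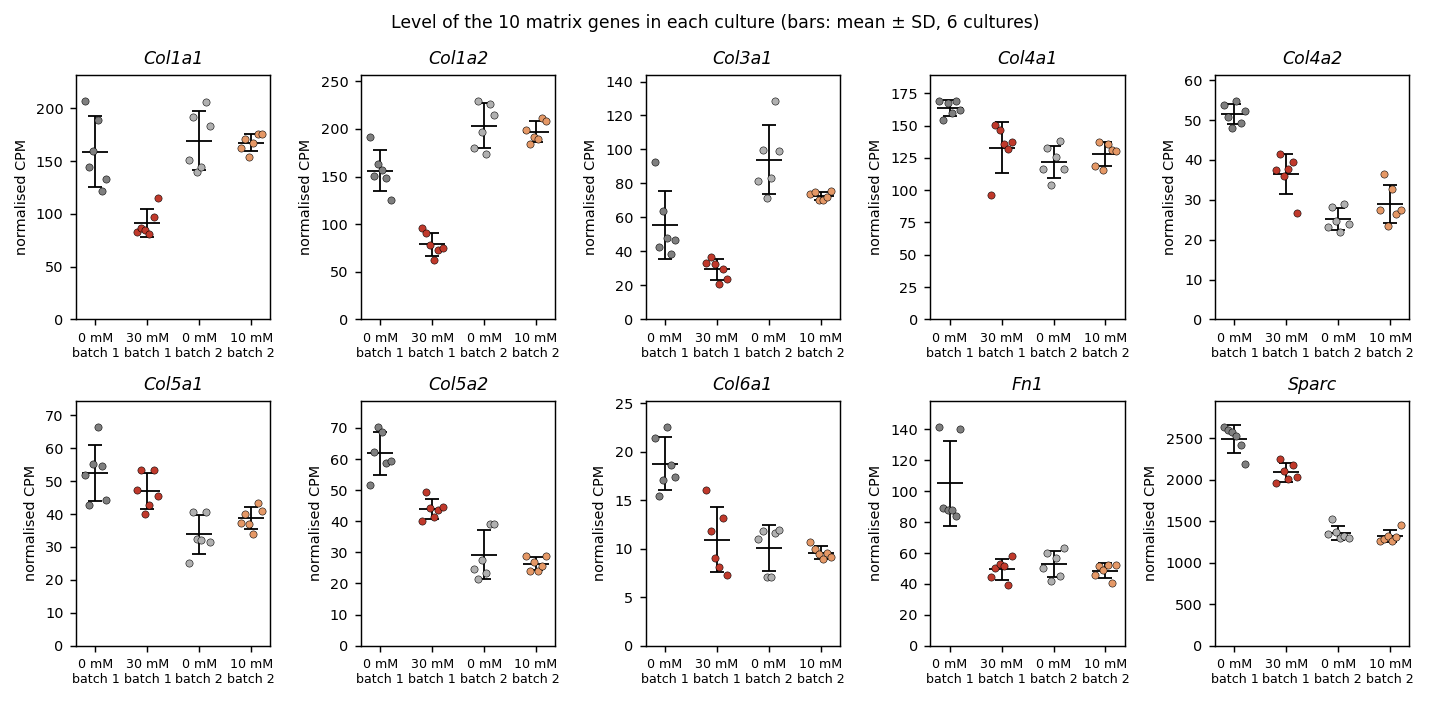
Each point is the level of 1 gene in 1 culture (vertical axis, TMM-normalised CPM, starting at 0), with 6 cultures per group on the horizontal axis and bars for the mean and SD. In batch 1 the 30 mM points of Col1a1, Col1a2, Col3a1, Col4a1, Col4a2, Col5a2 and Fn1 lie below all their controls, and in batch 2 no gene separates the 10 mM cultures from their controls.

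With 30 mM ethanol, 9 of the 10 genes were lower than in the controls of batch 1 and none was higher. The genes of type I collagen, type III collagen and fibronectin were lowered most: Fn1 fell by 52.3%, Col1a2 fell by 48.8%, Col3a1 fell by 46.1% and Col1a1 fell by 42.7%. Sparc fell by 15.7% and Col4a1 fell by 18.7%, the smallest of the changes that passed. Col5a1 did not pass the test. Of all 13235 genes tested in this comparison, 6.65% were called lower and 3.02% higher (edgeR quasi-likelihood test, adjusted p under 0.05 over all genes), and the median log2 fold change was -0.62 over the 10 genes and 0.02 over all genes. In 7 of the 10 genes every ethanol culture lay below every control, which held for 3.10% of all genes tested. Because the 10 genes were chosen with earlier results of these data known, setting them against all genes is no independent test. Leaving out ethanol replicate 1, in which Col4a1 was lowest, took the count from 9 to 8, and the other log2 fold changes that passed then lay between -1.03 (Fn1 and Col1a2) and -0.23 (Sparc).

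Type I collagen, the main collagen of fibrous tissue, is built from 2 chains of Col1a1 and 1 of Col1a2. Col1a2 ranged from 62.8 to 95.5 CPM (median 76.6) in the 30 mM cultures and from 125.8 to 192.0 CPM (median 153.6) in the controls. The highest ethanol culture was thus well below the lowest control. The log2 fold change was -0.97 (SE 0.0931, 95% interval -1.15 to -0.78, adjusted p = 2.32e-10), a fall of 48.8%. Its partner chain Col1a1 ranged from 81.2 to 115.1 CPM (median 85.7) with ethanol and from 121.2 to 207.2 CPM (median 152.1) without it. Its groups were also apart, though by a narrow gap, and its log2 fold change was -0.80 (SE 0.103, adjusted p = 2.35e-07). Col1a1 and Col1a2 kept a ratio near 1, with a mean of 1.2 ± 0.25 (SD, n = 6) at 30 mM and 1.0 ± 0.13 in the controls, and the ranges of the ratio overlapped.

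Col3a1 encodes the single chain of type III collagen, which forms fibrils together with type I. Its 30 mM cultures ranged from 20.7 to 36.9 CPM (median 31.2) and its controls from 38.6 to 92.5 CPM (median 47.3). The controls were widely spread, with 1 culture at 92.5 CPM, yet the groups did not overlap. The log2 fold change was -0.89 (SE 0.163, adjusted p = 0.000151).

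The 250 bases before the RefSeq start sites of Col1a2 and Col3a1, which were both lower at 30 mM, are shown from GRCm38.p6. Whether these sequences have a part in the falls was not tested. Both are written 5′ to 3′ on the plus strand, which is the strand of both genes, Col1a2 from chr6:4505368-4505617 and Col3a1 from chr1:45311288-45311537. Capitals mark GC-box (GGGCGG) and CCAAT-box (CCAAT) letters in Col1a2, and in Col3a1 they mark TATA-box (TATAAA) letters and a reverse-strand match of the TEAD element (GGAATG).
Col1a2: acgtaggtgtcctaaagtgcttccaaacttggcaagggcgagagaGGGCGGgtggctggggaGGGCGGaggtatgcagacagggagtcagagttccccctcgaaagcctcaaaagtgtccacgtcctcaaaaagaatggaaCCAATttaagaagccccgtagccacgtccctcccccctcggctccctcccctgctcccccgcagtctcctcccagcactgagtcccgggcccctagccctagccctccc
Col3a1: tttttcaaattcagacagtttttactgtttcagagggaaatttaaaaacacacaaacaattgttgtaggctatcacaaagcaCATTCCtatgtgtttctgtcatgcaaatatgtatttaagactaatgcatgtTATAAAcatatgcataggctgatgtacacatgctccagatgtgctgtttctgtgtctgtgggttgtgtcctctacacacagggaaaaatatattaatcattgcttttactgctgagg
Over windows of 300 bases, from 250 before to 50 after the start, the GC content was 61.0% for Col1a2 and 37.7% for Col3a1, against a median of 52.7% over 32851 mouse windows. GC-box letters on either strand were present in 35.7% of all windows and in those of Col1a2, Col4a1, Col4a2 and Col5a1. TATA-box letters were in 13.6% of all windows and, among the 7 genes with an entry, in that of Col3a1, whose match began 117 bases before the start. CCAAT-box letters were in 37.4% of all windows and in those of Col1a2, Col4a1 and Col4a2, and TEAD letters in 14.7% and in that of Col3a1. The SMAD element CAGAC, through which TGF-beta signalling acts, matched 49.6% of all windows and 5 of the 7, the AP-1 element TGANTCA 7.81% and that of Col6a1, and the CArG box of serum response factor 1.63% and 0 of the 7. Such matches describe letters only. No entry was matched for Col1a1, Col5a2 and Fn1.

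Type V collagen chains nucleate type I fibrils and set their width. Col5a2 ranged from 40.0 to 49.4 CPM (median 43.9) at 30 mM and from 51.8 to 70.3 CPM (median 60.8) in the controls. The groups did not overlap, and the log2 fold change was -0.49 (SE 0.105, adjusted p = 0.00107). Col5a1 ranged from 40.1 to 53.5 CPM (median 46.4) with ethanol and from 42.9 to 66.4 CPM (median 53.2) without it. These ranges overlapped over most of their width, and the log2 fold change of -0.16 did not pass the test (95% interval -0.39 to 0.07, adjusted p = 0.420). Falls of more than 0.39 on the log2 scale lay outside that interval, and 7 of the other 9 genes had fitted falls larger than that. Whether the change of Col5a1 differed from that of Col5a2 was not tested.

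Col4a1 and Col4a2 encode the chains of the most widespread type IV collagen, a heterotrimer of 2 alpha1 chains and 1 alpha2 chain. The genes lie head to head on chromosome 8 and are transcribed away from each other. In the RefSeq table (GRCm38.p6) their starts are 21 bases apart, so that the first bases of both transcripts overlap, and the 30 bases that hold both starts (chr8:11312801-11312830, plus strand, the strand of Col4a2) show how close they are, with capitals from the Col4a2 start to the Col4a1 start.
Col4a2 and Col4a1 starts: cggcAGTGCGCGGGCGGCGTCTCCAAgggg
Col4a1 ranged from 96.1 to 150.7 CPM (median 136.4) at 30 mM and from 154.1 to 169.2 CPM (median 164.7) in the controls. All ethanol cultures were lower, 1 of them (replicate 1) far below the other 5, and the log2 fold change was -0.30 (SE 0.0833, adjusted p = 0.0156). Without replicate 1 it was -0.21 and no longer passed (adjusted p = 0.0540). Col4a2 ranged from 26.7 to 41.5 CPM (median 37.6) against 48.1 to 54.9 CPM (median 51.6). Here too every ethanol culture was below every control, with a log2 fold change of -0.48 (SE 0.113, adjusted p = 0.00312).

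The type IV chains were not counted in equal numbers. The level of Col4a1 over that of Col4a2 averaged 3.72 ± 0.849 (SD, n = 6) at 30 mM, 3.18 ± 0.224 in its controls, 4.48 ± 0.486 at 10 mM and 4.88 ± 0.494 in the controls of batch 2. Ethanol cultures and controls overlapped in this ratio at both doses, while all controls of batch 1 (2.9 to 3.5) were below all controls of batch 2 (4.2 to 5.7). Both genes, and Col5a1, overlap other gene models in the RefSeq table, among them Gm15418 and Gm32709 at Col4a1, Gm46030 at Col4a2 and Gm13372 at Col5a1. Since use of strand in the counting is not stated, their counts are uncertain to that extent.

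Col6a1 encodes a chain of type VI collagen, which forms beaded microfilaments close to cells. It ranged from 7.3 to 16 CPM (median 10.4) at 30 mM and from 15.4 to 22.5 CPM (median 18) in the controls. The highest ethanol culture exceeded the lowest control, so the groups touched. The log2 fold change was -0.75 (SE 0.208, adjusted p = 0.0143), with a wide 95% interval of -1.17 to -0.33 at these low counts.

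Fn1, the fibronectin gene, had the largest change of the 10 genes. It ranged from 39.5 to 58.3 CPM (median 50.9) at 30 mM and from 83.9 to 141.6 CPM (median 88.6) in the controls. The controls fell into 4 cultures between 83.9 and 89.1 CPM and 2 near 140 CPM (replicates 1 and 6, at 141.6 and 140.0), and all 6 were above every ethanol culture. The log2 fold change was -1.07 (SE 0.127, 95% interval -1.33 to -0.81, adjusted p = 4.97e-08), and it stayed between -1.21 and -0.97 when single cultures were left out or other settings were used. Itga3, the alpha3 chain of an integrin that binds laminins and has been described to bind fibronectin, fell with it (log2 fold change -1.10, adjusted p = 7.10e-05, groups overlapping).

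Sparc made up most of the summed level of the 10 genes. It ranged from 1960 to 2248 CPM (median 2072) at 30 mM and from 2188 to 2638 CPM (median 2556) in the controls. Only the lowest control (replicate 6) lay among the ethanol cultures. The log2 fold change was small, at -0.25, but precise (SE 0.0562, adjusted p = 0.00240). The 10 genes together took 0.257% of counts at 30 mM and 0.324% in the controls, with sums of 2611 ± 136 CPM (SD, n = 6) and 3317 ± 225 CPM.

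Some markers of other cells also changed in batch 1, where 3.02% of all genes tested were called higher and 6.65% lower. The 14 pericyte and smooth muscle markers summed to 194 to 331 CPM at 30 mM and to 548 to 698 CPM in the controls, with 8 tested and 3 called lower: Acta2 (log2 fold change -1.60), Tagln (-1.68) and Cnn1 (-1.91), genes of the contractile apparatus. The pericyte markers Pdgfrb (-0.08) and Rgs5 (0.15) did not pass, and Higd1b had no count in either group of controls. The 14 fibroblast and meningeal markers summed to 208 to 233 CPM and 223 to 286 CPM, with 1 of 8 tested called lower, Dcn, which is also in the matricellular list given further on. Pdgfra of this list and Cspg4 of the pericyte list are also in the list of oligodendrocyte precursor markers. The sums of both lists, here and further on, are thus not of fibroblasts or pericytes alone. Endothelial markers summed to 136 to 173 CPM and 137 to 167 CPM with 0 of 7 called by edgeR (1 at an unadjusted p under 0.05), and Cldn5 had no count in batch 1. In the other direction, 8 of 13 oligodendrocyte markers and 6 of 13 astrocyte markers were called higher at 30 mM. Without replicate 1, the culture that stood apart, these counts were 8 of 13 and 7 of 13, and the pericyte and smooth muscle list still had 3 lower, of 9 tested. That culture had the lowest sum of pericyte and smooth muscle markers, at 194 CPM against 259 to 331 CPM in the other 5. The part of these cells in the falls of the collagen genes was not tested.

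**Figure D2:**
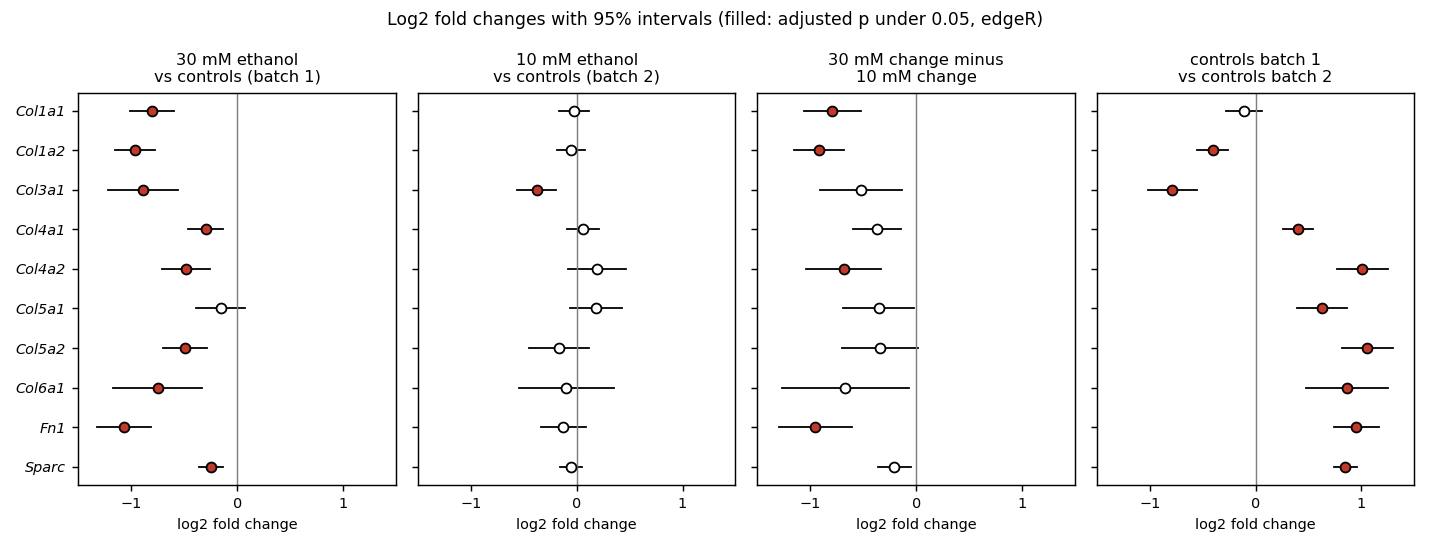
Log2 fold change (horizontal axis) of each gene (vertical axis) in the 4 comparisons, with 95% intervals and filled points for an adjusted p under 0.05. At 30 mM 9 of 10 points are filled and negative, at 10 mM only Col3a1 is, and in the comparison of the controls 7 are positive and 2 negative.

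With 10 mM ethanol, most of these genes stayed close to their controls. Only Col3a1 passed the test, and it was lower; of the 13538 genes tested, 0.266% were called lower and 0.391% higher. The median log2 fold change was -0.05 over the 10 genes and -0.0023 over all genes. Col3a1 ranged from 70.0 to 75.6 CPM (median 72.7) at 10 mM and from 71.4 to 128.7 CPM (median 91.0) in the controls. The ethanol cultures were tightly grouped and sat at the low end of a much wider control group, which they overlapped. The log2 fold change was -0.38 (SE 0.0929, adjusted p = 0.0291), a fall of 23.1%. This call held in 11 of 20 alternatives: it was lost with limma voom, with the total count as a covariate, in a fit of all 24 cultures (adjusted p = 0.228) and without any one of 6 cultures, of which control replicate 5 mattered most (-0.27, adjusted p = 0.268). In the same cultures fibroblast and meningeal markers summed to 248 to 273 CPM with ethanol and 257 to 326 CPM without it, with 1 of 9 called lower (Dcn), and pericyte and smooth muscle markers to 158 to 193 CPM and 159 to 187 CPM, with 0 of 7 called by edgeR (2 at an unadjusted p under 0.05). Of the other markers at 10 mM, 3 of 13 for oligodendrocytes were called higher (Mag, Mal and Cnp), as were 2 of 12 for microglia (Cx3cr1 and Fcrls) and 2 of 10 for neurons, with 1 neuronal marker lower. Mag ranged from 514 to 561 CPM with ethanol and from 331 to 510 CPM without it, Mal from 229 to 264 CPM and from 158 to 211 CPM, and Cx3cr1 from 130 to 148 CPM and from 92.9 to 125 CPM. All 3 were free of overlap, as were 0.813% of all genes tested. By list, groups were free of overlap in 2 of 13 oligodendrocyte, 2 of 12 microglial, 1 of 13 astrocyte and 1 of 10 neuronal markers, all higher with ethanol. The same held for 1 of 7 pericyte and smooth muscle markers, which was lower. At an unadjusted p under 0.05 were 7 of 13 oligodendrocyte, 4 of 12 microglial, 4 of 13 astrocyte and 6 of 10 neuronal markers. The part of any of these in the change of Col3a1 was not tested.

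The other 9 genes had log2 fold changes from -0.17 (Col5a2) to 0.19 (Col4a2), with adjusted p from 0.652 to 0.949, and in 0 of the 10 genes were the groups free of overlap, against 0.813% of all genes tested. Type I collagen was measured closely: Col1a1 ranged from 153.7 to 175.8 CPM at 10 mM (median 169.1) and from 139.2 to 205.7 CPM in the controls (median 167.0). Its log2 fold change was -0.03 with a 95% interval of -0.17 to 0.12. Col1a2 ranged from 184.6 to 211.0 CPM (median 195.5) and from 173.3 to 229.6 CPM (median 205.8), and its log2 fold change was -0.06 with an interval of -0.19 to 0.08. In both genes the ethanol cultures lay inside the range of the controls, and both intervals leave out falls of the size seen at 30 mM.

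For the remaining genes at 10 mM the groups also overlapped, though fitted changes and intervals were wider in several. Col4a1 ranged from 115.5 to 137.2 CPM (median 130.7) with ethanol and from 103.9 to 138.1 CPM (median 120.9) without it, and Col4a2 from 23.5 to 36.6 CPM (median 27.4) and from 22 to 29.1 CPM (median 24.3). Fn1 ranged from 40.3 to 52.3 CPM (median 50.3) and from 41.7 to 63.1 CPM (median 53.4), with a log2 fold change of -0.13 (interval -0.34 to 0.08). Sparc ranged from 1266 to 1462 CPM (median 1300) and from 1296 to 1526 CPM (median 1336), with a log2 fold change of -0.05 (interval -0.15 to 0.05). For Col6a1 the interval was the widest, -0.54 to 0.35. Col4a2 had a log2 fold change of 0.19 (interval -0.08 to 0.47). Col5a1 ranged from 33.9 to 43.2 CPM (median 38.6) with ethanol and from 25.2 to 40.7 CPM (median 32.3) without it, with a log2 fold change of 0.18 (interval -0.06 to 0.43). Col5a2 ranged from 23.9 to 28.9 CPM (median 26.2) and from 21.5 to 39.3 CPM (median 26.0), with a log2 fold change of -0.17 (interval -0.45 to 0.12).

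The level of Col3a1 relative to Col1a1 was 0.41 to 0.46 at 10 mM and 0.51 to 0.63 in the controls of batch 2, so every ethanol culture had the lower ratio. In batch 1 the ranges overlapped, 0.20 to 0.43 at 30 mM against 0.25 to 0.45. This ratio was looked at after the levels were seen and was not tested.

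The changes at the doses were compared with each other as a difference of log2 fold changes (30 mM minus 10 mM) over all 24 cultures. The fall at 30 mM exceeded the change at 10 mM for 4 of the 10 genes: Col1a2 (difference -0.92, SE 0.119, adjusted p = 7.19e-08), Fn1 (-0.95, SE 0.172, adjusted p = 0.000202), Col1a1 (-0.79, SE 0.134, adjusted p = 5.95e-05) and Col4a2 (-0.69, SE 0.177, adjusted p = 0.0147). Of 14655 genes tested, 2.40% were called lower in this sense and 0.880% higher, and the median difference was -0.60 over the 10 genes and 0.02 over all. The other 6 genes had negative differences as well, from -0.21 (Sparc) to -0.67 (Col6a1), which did not pass. Col4a1, at -0.37 (adjusted p = 0.0539), passed in 12 of 31 alternatives. Col3a1, lower at both doses, had a difference of -0.52 with a 95% interval of -0.91 to -0.14 (adjusted p = 0.121).

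The controls of the batches, grown without ethanol, differed in most of these genes, and not all in the same direction. In batch 1, 7 genes were higher and 2 lower than in batch 2, where 21.3% and 22.3% of the 13479 genes tested were called higher and lower. All 6 controls of batch 1 lay above all 6 of batch 2 in those 7 genes, as in 10.9% of all genes tested. The higher genes were the type IV chains, both type V chains, Col6a1, Fn1 and Sparc. Col5a2 (log2 fold change 1.05, adjusted p = 8.63e-12) and Col4a2 (1.01, adjusted p = 3.46e-11) differed most, followed by Fn1 (0.95), Col6a1 (0.86), Sparc (0.85), Col5a1 (0.63) and Col4a1 (0.40).

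Against these, Col3a1 was lower in the controls of batch 1 (log2 fold change -0.79, adjusted p = 3.46e-08), as was Col1a2 (-0.41, adjusted p = 3.53e-06), with groups that overlapped in both. Col1a1 did not pass (-0.11, adjusted p = 0.299). Col3a1 and Col5a2 are neighbours on chromosome 1 in the RefSeq table, and they differed between the batches in opposite directions. Pericyte and smooth muscle markers summed to 548 to 698 CPM in the controls of batch 1 and 159 to 187 CPM in those of batch 2, Acta2 having means of 369 and 24 CPM. Of 9 pericyte and smooth muscle markers tested 3 were higher and 1 lower in batch 1. Fibroblast and meningeal markers summed to 223 to 286 CPM and 257 to 326 CPM, with 1 higher and 4 lower of 9. Microglial markers were lower in 12 of 12, and astrocyte markers had 9 higher and 3 lower of 13. Precursor markers had 1 higher and 8 lower of 12, neuronal 0 and 5 of 11, endothelial 1 and 2 of 7 and oligodendrocyte 0 and 2 of 13. The part of any of these cells in the difference between the batches was not tested. This comparison shares its cultures with those of ethanol against controls.

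Across all 4 groups the order of levels differed by gene. Col1a1 had means of 159 ± 33.2, 167.6 ± 8.48 and 169 ± 27.9 CPM (SD, n = 6) in the controls of batch 1, at 10 mM and in the controls of batch 2, 3 groups that overlapped, and 91.3 ± 12.9 CPM at 30 mM. Fn1 had one high group, the controls of batch 1 (105 ± 27.7 CPM), and 3 overlapping groups near 50 CPM: 49.5 ± 6.69 at 30 mM, 48.5 ± 4.75 at 10 mM and 52.8 ± 8.49 in the controls of batch 2. Sparc was higher in every culture of batch 1 than in any of batch 2, the lowest of batch 1 being at 1960 CPM and the highest of batch 2 at 1526 CPM. Col5a2 was split by batch in the same way, from 40.0 CPM upwards in batch 1 and up to 39.3 CPM in batch 2.

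**Figure D3:**
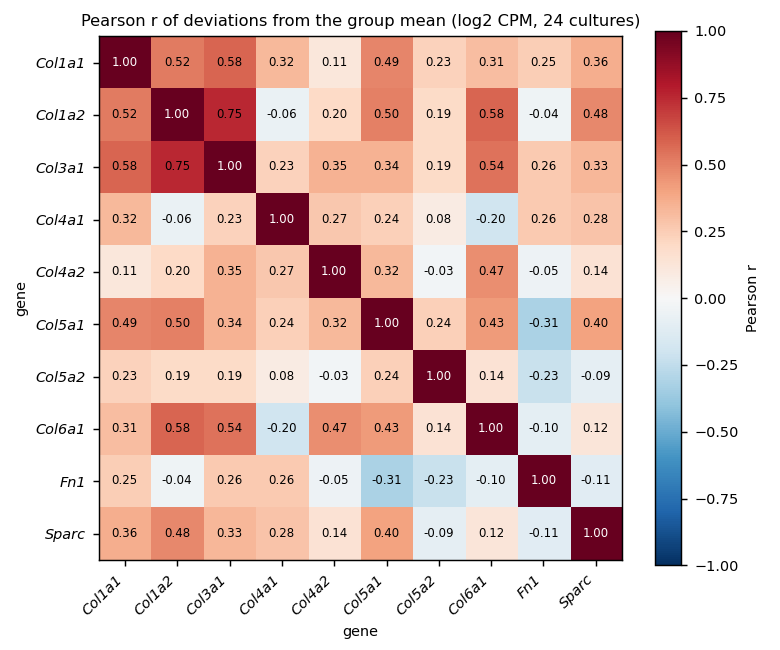
Pearson r (colour scale and printed value) for each pair of the 10 genes, on both axes, over 24 cultures, from log2 CPM minus the group mean. Col1a2 and Col3a1 share the highest value, 0.75, and Fn1 has no value above 0.26.

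Within the groups the genes varied together only in part. Log2 CPM minus the group mean was compared over the 24 cultures for all 45 pairs of genes, as a description without a test, since values of 1 culture share its library and depth. Pearson r ranged from -0.31 (Col5a1 with Fn1) to 0.75 (Col1a2 with Col3a1), with a median of 0.25, and 6 pairs were above 0.5. Those 6 were made of Col1a1, Col1a2, Col3a1, Col5a1 and Col6a1: besides Col1a2 with Col3a1 they were Col1a1 with Col3a1 (0.58), Col1a2 with Col6a1 (0.58), Col3a1 with Col6a1 (0.54), Col1a1 with Col1a2 (0.52) and Col1a2 with Col5a1 (0.50). The head-to-head pair Col4a1 and Col4a2 had an r of 0.27, made of -0.05 in batch 1 and 0.64 in batch 2, and the neighbours Col3a1 and Col5a2 one of 0.19, made of -0.13 and 0.55. The 6 highest pairs were positive in both batches, from 0.36 (Col1a2 with Col5a1, batch 1) to 0.92 (Col1a1 with Col3a1, batch 2), and Col1a2 with Col3a1 had 0.78 and 0.67.

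Outside the 10 genes, 13339 genes with enough counts were ranked by the same measure against the mean of each set. Nearest to the 5 fibrillar genes were Mybl1 (r = 0.81), Slc45a4 (0.77), Rnf14 (0.74), Serpine2 (0.71) and Cebpd (0.70). Nearest to the type IV pair were Mdk (0.73), Cnn2 (0.68), Erh (0.67), Mbd1 (0.66) and Col4a5 (0.65), the last of these a further type IV chain. Nearest to Fn1 were Fam208a (0.70) and Itga3 (0.70), and nearest to Sparc were Ldhb (0.84), Fzd2 (0.81), Ccnd1 (0.80), Tubb6 (0.78) and Mt1 (0.78). The mean of all 10 genes was nearest to Slc45a4 (0.77), Mybl1 (0.74), Nfkbib (0.72), Rhou (0.72) and Nid1 (0.71), which encodes the basement membrane linker nidogen. Within single batches the values of the genes named here ran from 0.51 (Col4a5, batch 1) to 0.90 (Ldhb, batch 2). These are the highest of many values and are given as such.

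The wider matrix programme was read through 7 lists of related genes, whose counts at 30 mM stand against 3.02% of all genes called higher and 6.65% lower, and at 10 mM against 0.391% and 0.266%. Of 35 other collagen chains 23 were tested at 30 mM, and 0 were higher and 6 lower, with a median log2 fold change of -0.06. Col18a1, a heparan sulphate collagen of basement membranes, fell by 0.56 on the log2 scale (adjusted p = 3.56e-06), the network-forming Col8a1 by 0.52 (adjusted p = 2.00e-05) and the type V chain Col5a3 by 0.53 (adjusted p = 0.000685). Col11a1, Col11a2 and Col12a1 were the other 3, singled out after their values were seen. At 10 mM 25 were tested and 1 was higher, Col20a1 (0.37, adjusted p = 0.0341).

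Enzymes and chaperones of collagen synthesis and processing showed 0 higher and 7 lower of 30 tested at 30 mM, with a median of -0.12. Lox, which cross-links collagen and elastin, ranged from 30.3 to 39.9 CPM (median 32.8) at 30 mM and from 49.3 to 82.3 CPM (median 65.1) in the controls. Its groups were clearly apart (log2 fold change -0.91, adjusted p = 5.51e-07). Loxl1, a relative of Lox, fell by 0.47 (adjusted p = 0.00340) and Pcolce, an enhancer of procollagen cleavage, by 0.52 (adjusted p = 0.00655).

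At 10 mM the same list of processing genes had 2 higher and 0 lower of 29 tested. Serpinh1, the collagen chaperone HSP47, ranged from 278 to 316 CPM (median 290) at 10 mM and from 215 to 241 CPM (median 226) in the controls. Every ethanol culture was above every control (log2 fold change 0.34, adjusted p = 0.000185). P4ha1, a subunit of the prolyl 4-hydroxylase that stabilises the triple helix, rose by 0.38 (adjusted p = 0.0171). At 30 mM Serpinh1 did not pass (log2 fold change -0.13, adjusted p = 0.214, groups overlapping). For Serpinh1 the change at 30 mM was lower than that at 10 mM by the test of the difference (-0.48, adjusted p = 0.000339), as it was for P4hb (-0.32), Pcolce (-0.69) and Pxdn (-0.80), 4 of 31 tested.

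**Figure D4:**
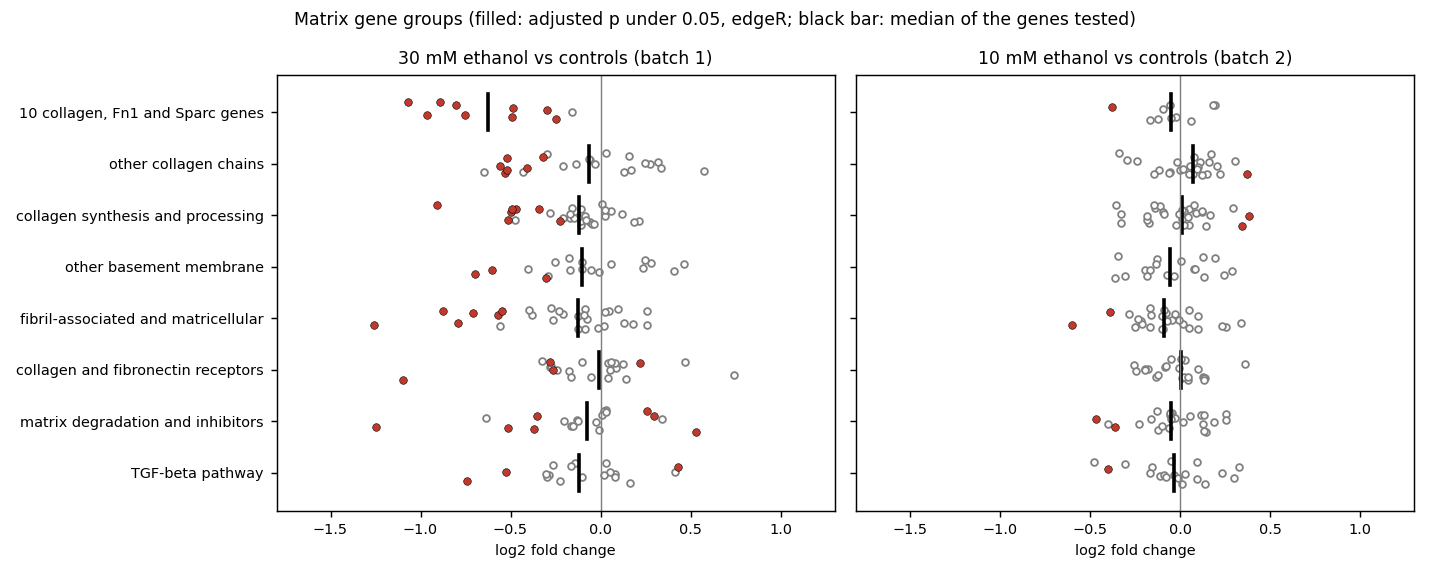
Log2 fold change (horizontal axis) of every tested gene of the 10-gene set and of the 7 lists (vertical axis) at 30 mM and at 10 mM, with filled points for an adjusted p under 0.05 and a black bar at the median of the genes tested. At 30 mM the bar of the 10 genes stands at -0.62 and those of the 7 lists between -0.13 and -0.01.

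Of the other basement membrane genes 18 were tested at 30 mM, with 0 higher, 3 lower and a median of -0.10. Hspg2, which encodes the proteoglycan perlecan, fell by 0.60 (adjusted p = 3.45e-05), and the laminin chain genes Lama5 and Lamb2 by 0.70 (adjusted p = 0.000685) and 0.30 (adjusted p = 0.0265). At 10 mM 0 of 18 were called by edgeR, and 2 had an unadjusted p under 0.05. Among fibril-associated and matricellular genes 0 of 28 were higher and 6 lower at 30 mM, with a median of -0.13. Thrombospondin 1 (Thbs1), a secreted activator of latent TGF-beta, ranged from 78.2 to 99.4 CPM at 30 mM and from 129 to 194 CPM in the controls (log2 fold change -0.88, adjusted p = 1.00e-09). It fell at 10 mM too, where its cultures again lay below all controls (106 to 141 CPM against 172 to 191 CPM, log2 fold change -0.60, adjusted p = 3.80e-09).

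The fibril-binding proteoglycan genes Dcn and Fmod fell at 30 mM by 0.79 (adjusted p = 0.000203) and 0.71 (adjusted p = 5.48e-05). Dcn fell at 10 mM as well, by 0.39 (adjusted p = 0.0184), and with Thbs1 it made up the 2 of 27 called there. Of 22 tested receptors of collagen and fibronectin 1 was higher at 30 mM, Cd44 (0.22, adjusted p = 0.0271; 3 were higher without ethanol replicate 1), and 3 were lower, Itga3, Itgb1 (-0.26, adjusted p = 0.00776) and Adgrg1 (-0.28), the last of these named after its value was seen. At 10 mM 0 of 23 receptors were called by edgeR, 5 of them having an unadjusted p under 0.05. The changes of Itga3 (-1.46, adjusted p = 0.00208) and Cd44 (0.33, adjusted p = 0.0249) differed between the doses.

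Genes of matrix degradation and its inhibitors were called in both directions at 30 mM, with 3 higher and 4 lower of 20 tested (3.02% and 6.65% over all genes) and a median of -0.07. The aggrecanase gene Adamts4 rose by 0.53 (adjusted p = 0.000624) and the cathepsin gene Ctsb by 0.26 (adjusted p = 0.00470), while the stromelysin gene Mmp3 fell by 1.25 (adjusted p = 0.000568). In each of these genes the groups overlapped. Adamts4 ranged from 120.7 to 235.9 CPM (median 135.8) at 30 mM and from 96.6 to 123.2 CPM (median 105.5) in the controls. Mmp3 was thinly counted, at 5.9 to 12.9 CPM against 11.4 to 37.3 CPM. Mmp3 fell at 10 mM too (-0.47, adjusted p = 0.00302), with overlapping groups (53.5 to 69.9 CPM against 66.4 to 99.2 CPM). Adamts1 was the other of 2 lower genes of 24 there. In the TGF-beta pathway, a main inducer of collagen genes in many cells, 1 of 18 was higher at 30 mM, the inhibitory Smad7 (0.43, adjusted p = 0.0425), and 2 were lower, among them the decoy receptor gene Bambi (-0.74, adjusted p = 0.0199). At 10 mM 1 of 19 was lower, the receptor gene Tgfbr1 (-0.40, adjusted p = 0.0416).

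In the test of the difference between the doses, 2.40% of all genes were called lower and 0.880% higher, and 4 of 31 processing genes, named above, were lower. None of 26 other collagen chains, 19 basement membrane genes and 19 TGF-beta pathway genes was called by edgeR, with 5, 5 and 3 at an unadjusted p under 0.05. Of 28 fibril-associated and matricellular genes 1 was lower, Bgn, which encodes the proteoglycan biglycan (-0.63, adjusted p = 0.0463). Of 24 degradation genes 2 were higher, Ctsb (0.30, adjusted p = 0.0304) and Timp1 (0.41, adjusted p = 0.0155), an inhibitor of metalloproteinases. Bgn and Timp1, like Pxdn and P4hb, were named after their values were seen.

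Between the control groups, where 21.3% of all genes tested were called higher in batch 1 and 22.3% lower, the lists were called in both directions. Of 31 processing genes 15 were higher and 1 lower, and of 19 basement membrane genes 7 were higher and 1 lower. Other collagen chains had 8 higher and 8 lower of 25, fibril-associated and matricellular genes 8 and 9 of 28, receptors 7 and 8 of 22 and the TGF-beta pathway 5 and 4 of 19. Degradation genes were lower in 13 and higher in 6 of 23.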

How the data were processed

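Counts of 3′ tag reads per gene in 24 cultures, 4 groups of 6, were used. Raw counts for 55359 mouse gene identifiers were deposited by the authors; cutadapt 1.18, STAR and the build GRCm39 are named, without roles, per the submitters' processing notes. The counting tool, its use of strand and any removal of PCR duplicates are not given in the sources used here. Symbols were matched by identifier for 52083 rows (94.1%), and promoter windows and gene neighbours come from RefSeq tables on GRCm38.p6, by symbol, for 7 of the 10 genes (promoters).

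Tests were edgeR's quasi-likelihood test (edgeR 4.0.16, R 4.3.3) with TMM scaling, the filterByExpr minimum of 10 counts and Benjamini-Hochberg adjustment over all genes. Ethanol cultures were set against the controls of their batch. Changes at the doses were compared as an interaction over all 24 cultures, and the control groups directly. Intervals are 95% t intervals of the log2 fold change, and SE is its standard error. The 10 genes and the lists were chosen with earlier results of these data known. From each list up to 3 called genes with the smallest adjusted p at each dose are named; 1 gene that this rule names is not reported here. The 5 most similar genes were taken by Pearson r over 24 cultures among genes with a mean log2 CPM of at least 3 (prior count 2). The steps were tested on simulated data. No pair of cultures within a group agreed within sampling noise (60 pairs, chi-square per degree of freedom 1.07 to 2.88). Alternatives were DESeq2 1.42.0 and its size factors, upper-quartile scaling, limma voom (limma 3.58.1), no low-count filter, a replicate block, the total count as a covariate, a fit of all cultures and leaving out each culture.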

Additional observations from a re-analysis of the deposited data

Results flagged for a closer look

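In 4 of the 40 sets of 6 cultures (10 genes in 4 groups) 1 culture lay far from the others, where chance gives about 2. The sets share cultures across genes and are not independent, so that figure is only a rough guide. Col4a1 was at 96.1 CPM in 30 mM replicate 1, with the nearest culture at 131.6 CPM. Col4a2 was at 26.7 CPM in 30 mM replicate 6, with the nearest at 36.0 CPM, so the low culture was not the same one for the paired chains. Sparc was at 1462 CPM in 10 mM replicate 6, with the nearest at 1328 CPM, and at 1526 CPM in control replicate 2 of batch 2, with the nearest at 1366 CPM.

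For 4 genes the change at 30 mM differed from that at 10 mM by the test of the difference itself: Col1a1 by -0.79, Col1a2 by -0.92, Col4a2 by -0.69 and Fn1 by -0.95 on the log2 scale. Dose and batch cannot be told apart in these differences.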

How the results depend on the processing

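At 30 mM 8 to 9 of the 10 genes were lower in all 20 alternatives, and the count of all genes called ranged from 953 to 1599. At 10 mM the count of genes called was 89, and it was 21 in the fit of all 24 cultures and 37 to 95 when single cultures were left out (40 and 45 without 10 mM replicates 2 and 4, and 57, 37 and 46 without control replicates 4, 5 and 6). The count of the 10 genes lower there was 0 with limma voom, with the log2 total count as a covariate and in the fit of all 24 cultures, and 0 to 1 when single cultures were left out. Col1a1 at 10 mM ranged from -0.0692 to 0.0423 when single cultures were left out, with positive values without control replicates 2, 5 and 6 of batch 2. The difference between the doses was called for 481 genes, for 307 with the total count as a covariate, and for 329 to 759 when single cultures were left out, the highest counts being 759 without 30 mM replicate 1 and 723 without replicate 2. Of the 10 genes, 4 to 6 were lower in it over 31 alternatives. The controls of the batches kept 7 higher and 2 lower over 19 alternatives. The cause of these shifts was not tested. Same-numbered cultures showed little shared deviation (r from -0.17 to 0.23 in batch 1 and -0.04 to 0.04 in batch 2), and 1 of 6 in batch 1 and 0 of 6 in batch 2 were closest to their own number. These values cannot exclude that same-numbered cultures share an origin, which the labels do not give. With a replicate block 1208 genes were called for the higher dose, 68 for the lower, 461 for their difference and 5860 between the controls, and it changed no call of the 10 genes. Without 30 mM replicate 1, an alternative chosen after seeing the data, the other matrix lists had counts within 1.5 times those given, except receptors higher (3 in place of 1), and basement membrane and fibril-associated genes higher (1 each in place of 0). Lower genes of the basement membrane list were 2 in place of 3, and of the fibril-associated list 9 in place of 6. Depth limits Col6a1 most, at 9 to 39 counts per culture.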
